A study of Homo sapiens with 2 samples.

Results

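The annexins are calcium-dependent membrane-binding proteins, and their RNA was examined in MRC-5 lung fibroblasts with and without knockdown of periostin. The family was taken as 10 genes, ANXA1, ANXA2, ANXA3, ANXA4, ANXA5, ANXA6, ANXA7, ANXA8, ANXA8L1 and ANXA11, of which 9 had a probe named through its RefSeq accession, out of 21743 genes named on the array. No probe carried an accession of ANXA8. The genes were chosen by family name with the signal ratio of periostin siRNA to control siRNA on these same arrays already known, so the ratios below are a description and carry no test. MRC-5 is an established line of fibroblasts from fetal lung. Both groups of cells received siRNA at 10 nM for 48 h, control siRNA in one and periostin siRNA in the other. Total RNA of each group was labelled with Cy3 and hybridised to 1 single-colour Agilent array, 2 arrays in all on the same slide. With 1 array per condition no difference had a replicate check. The question was which fibroblast genes depend on periostin, a secreted matrix protein that binds integrins.

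Annexins share a core of repeated domains that binds acidic phospholipids when calcium is present, and differ in the N-terminal tail ahead of it. That tail binds partners such as the small S100 proteins. In fibroblasts and other adherent cells annexins are known for linking membranes to actin, for vesicle traffic and for sealing tears in the plasma membrane.

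Signals are given as fluorescence intensity scaled so that both arrays shared the same 75th percentile, 377 units. A log2 ratio is the scaled signal with periostin siRNA over that with control siRNA, so a value above 0 means a higher signal after periostin knockdown. The error after ± is the SD over spots where a probe was printed 10 times, and otherwise the error that the scanner software propagates for a single spot. Neither covers the difference between cultures. The targeted gene POSTN had a signal of 2638 in control cells and 280 after knockdown, which gave a log2 ratio of -3.24 ± 0.20. The library labelled periostin siRNA was therefore the one with less POSTN RNA, 9.43-fold. Of the 58717 non-control spots on each array, 58.0% and 58.9% were well above background with control and periostin siRNA, and 0 were saturated. All 9 fibroblast markers, among them the collagen gene COL1A2 and the filament gene VIM, stood well above background in both conditions.

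Of the 9 annexin genes with a probe, all 9 were well above background on both arrays. Their median log2 ratio was 0.24, and it was 0.14 without ANXA8L1, beside 0.06 over the 16052 genes with a ratio or a bound. Their log2 ratios were above 0 in 6 genes and below 0 in 3, beside 8745 above and 7307 below over all measured genes. More than 3-fold, the threshold the study used, was reached upward by 1 of the 9, ANXA8L1, where 3.37% of all measured genes were that much higher. Downward it was reached by 0 of the 9, beside 2.75% of all genes. At 2-fold the counts were again 1 higher and 0 lower, beside 7.97% and 6.42% of all genes. At 1.5-fold they were 2 higher, ANXA4 and ANXA8L1, and 0 lower, beside 17.6% and 13.7% of all genes. With 9 genes, nothing is read from these shares about the family.

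**Figure D1:**
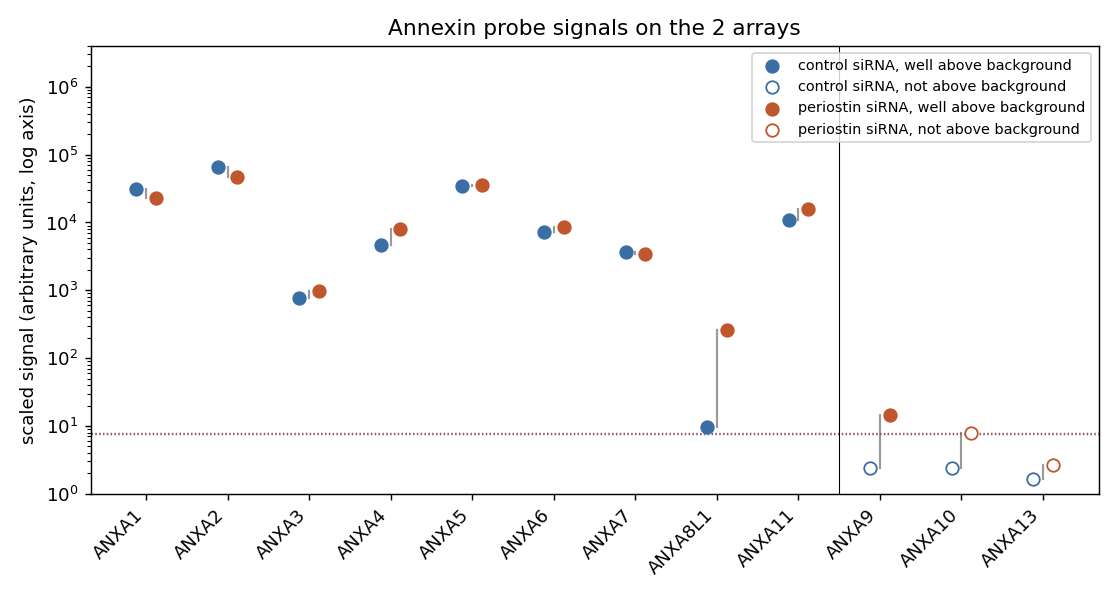
Scaled signal (arbitrary units, log axis) of the brightest probe of each annexin gene, with control siRNA in blue and periostin siRNA in orange, 1 array each, open points not well above background, dotted lines at the detection limits of 7.55 and 7.77, and the annexins outside the 10 right of the divider. The points of ANXA8L1 lie at 9.68 and 258 while those of ANXA1 to ANXA7 and ANXA11 lie close together within each gene, and heights of different probes are not comparable.

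The promoters of the 2 genes with the lowest ratios, ANXA1 and ANXA2, and of the 2 with the highest, ANXA4 and ANXA8L1, are shown to let a reader compare the sequence ahead of genes at both ends of the family. Each is the 100 bases just before the annotated start, 5′ to 3′ on the gene's own strand, from RefSeq on GRCh38.p14. Capitals mark a TATA box (TATAAA on the gene's strand) or a GC box (GGGCGG on either strand). ANXA1 is at chr9:73151765-73151864 on the plus strand, ANXA2 at chr15:60397987-60398086 on the minus strand, ANXA4 at chr2:69643708-69643807 on the plus strand and ANXA8L1 at chr10:46375676-46375775 on the plus strand. ANXA4 has another annotated window, at chr2:69741884-69742183, and which start gave the measured RNA was not tested. The probe named for ANXA8L1 cannot be taken to tell it from its near-identical copy ANXA8, whose promoter is not shown.
ANXA1: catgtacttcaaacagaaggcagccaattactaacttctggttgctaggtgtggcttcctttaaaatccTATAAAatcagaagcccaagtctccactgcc
ANXA2: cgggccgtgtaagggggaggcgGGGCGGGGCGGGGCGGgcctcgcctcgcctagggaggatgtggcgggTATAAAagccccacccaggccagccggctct
ANXA4: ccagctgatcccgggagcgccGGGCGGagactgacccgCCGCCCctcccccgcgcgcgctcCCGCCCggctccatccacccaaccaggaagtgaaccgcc
ANXA8L1: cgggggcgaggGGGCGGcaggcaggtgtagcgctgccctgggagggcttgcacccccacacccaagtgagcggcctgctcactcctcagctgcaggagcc
In both ANXA1 and ANXA2 the TATA box begins 31 bases before the start. A TATAAA between 40 and 20 bases before the start is found in 2.3% of the 35116 RefSeq promoter windows, each of which runs from 250 bases before to 50 after the start, and TATAAA anywhere in the window in 7.33%. ANXA11 also holds a TATAAA in 1 of its windows, at -61 from the start, outside the 40 to 20 bases before it. The ANXA2 stretch holds 3 GC boxes and the ANXA1 stretch 0. The whole ANXA1 window was 37.7% G and C with 0 CpG, and the ANXA2 window 76.0% with 32 CpG, against medians of 58.7% and 14 over all windows.

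The 13 windows of 9 annexin genes were searched for 6 further motifs on both strands, with no entry used here for ANXA8. A GC box was found in 8 of the 13 windows and 45% of all windows, in each of the 9 genes but ANXA1 and ANXA3. A CCAAT box (CCAAT) was found in 4 of the 13, in ANXA1, ANXA6, ANXA7 and ANXA11, and in 34.6% of all windows. An E-box (CACGTG) was found in 2 of the 13, in ANXA4 and ANXA6, and in 7.26% of all windows. An AP-1 site (TGANTCA) was found in 1 of the 13, in ANXA2, and in 7.71% of all windows. A CRE (TGACGTCA, 1.85% of all windows) and the core of the interferon-stimulated response element (GAAA, any 2 bases and GAAA again, 3.57%) were found in 0 of the 13. These are letter matches in a fixed window and say nothing of binding.

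ANXA1 and ANXA2, the annexins best known for binding S100 proteins through their tails, had the lowest ratios. ANXA1, a glucocorticoid-induced protein that dampens inflammation, had a signal of 31616 with control siRNA and 23233 with periostin siRNA. Its log2 ratio was -0.44 ± 0.20, and 18.6% of measured genes had a ratio as low or lower. ANXA2, which carries plasminogen and its activator on the cell surface, had signals of 66647 and 46388.

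The log2 ratio of ANXA2 was -0.52 ± 0.20, with 15.7% of measured genes as low or lower. Its other probe read 1594 and 1185, a log2 ratio of -0.43 ± 0.20, so both probes were lower with periostin siRNA and differed by less than their errors. Near-identical processed copies of ANXA2 have probes of their own that may also catch its RNA. The copy ANXA2P1 read 15339 and 9448 with a log2 ratio of -0.70, and ANXA2P3 read 1363 and 824 with -0.73. Whether these probes catch RNA of ANXA2, of the copies or of both was not tested.

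The main partner of ANXA2, S100A10, had signals of 28749 and 25089 and a log2 ratio of -0.20 ± 0.20, within its error. S100A11, which binds ANXA1, read 13017 and 13049, and its log2 ratio of 0.0036 was also within the error. PLAT, the tissue plasminogen activator that ANXA2 binds, was lower on its 10 spots, 65588 against 29042 with a log2 ratio of -1.18 ± 0.047 (SD, n = 10 spots). That was the only gene past 2-fold of the 14 measured among 16 annexin partners, where 6.42% of all genes were lower by more than 2-fold. ANXA2R, reported as a receptor for ANXA2, read 1561 and 969 with a log2 ratio of -0.69 ± 0.20.

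ANXA2R and PLAT were the 2 partners lower by more than 1.5-fold (13.7% of all genes), and 0 partners were higher by as much (17.6%). Next to ANXA2R, the overlapping transcript ANXA2R-OT1 had log2 ratios of -1.16, -1.10 and -1.31 on 3 probes. The antisense transcript ANXA2R-AS1 read 244 and 250, with 0.03. Whether a probe here also catches RNA of the neighbour was not tested.

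The phospholipase gene PLA2G4A, whose enzyme ANXA1 is known to restrain, read 920 and 1213 as means over 10 spots, with a log2 ratio of 0.40 ± 0.056 (SD, n = 10 spots). FPR1, a receptor for ANXA1, was near background at 20.9 and 15.7, and its log2 ratio of -0.41 had an error of 0.28. FPR2 and FPR3 were not well above background on either array. The median log2 ratio over the partners was -0.14, with 5 genes above 0 and 9 below, beside 8745 and 7307 of all measured genes.

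**Figure D2:**
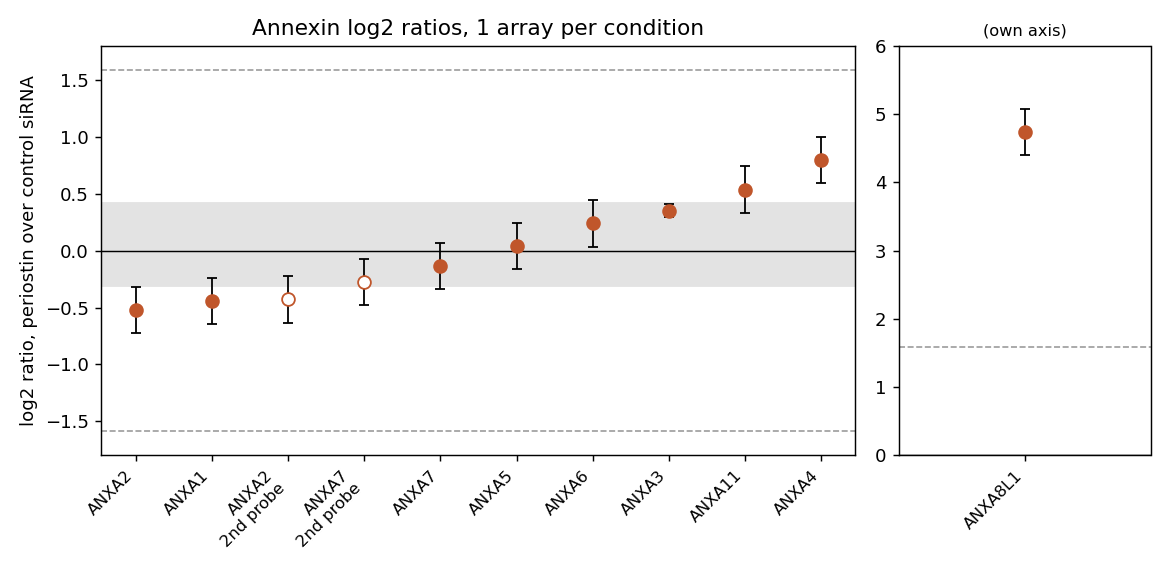
Log2 ratio of periostin siRNA over control siRNA for each annexin probe, with ANXA8L1 on its own axis, bars for the propagated spot error (ANXA3: SD over 10 spots), open points for second probes, a grey band between the quartiles of all measured genes (-0.31 and 0.42) and dashed lines at 3-fold. ANXA2 (-0.52) and ANXA1 (-0.44) lie lowest, ANXA4 (0.80) and ANXA8L1 (4.74) highest, and ANXA5 (0.04) near 0.

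ANXA5 and ANXA6 bind phosphatidylserine on membranes. ANXA5, whose protein is used as a stain for dying cells, had signals of 34803 and 35758 and a log2 ratio of 0.04 ± 0.20. The sign of that ratio turned to -0.09 with scaling on the array median. ANXA6, whose core is a pair of joined annexin cores and which takes part in membrane traffic and repair, read 7151 and 8443 with 0.24 ± 0.20. Of all measured genes 35.7% were as high or higher.

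ANXA3, known from neutrophils and blood vessels, was the only annexin of the 9 printed at 10 spots. Its control siRNA spots ran from 717 over a median of 771 to 809, and its periostin siRNA spots from 928 over 977 to 1033. The spots of the 2 arrays did not overlap, and each of the 10 spots was higher with periostin siRNA by 0.24 to 0.44 on the log2 scale. The mean log2 ratio was 0.35 ± 0.058 (SD, n = 10 spots), and 28.6% of measured genes were as high or higher. These spots measure 1 labelled RNA per array, so their spread is technical.

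**Figure D3:**
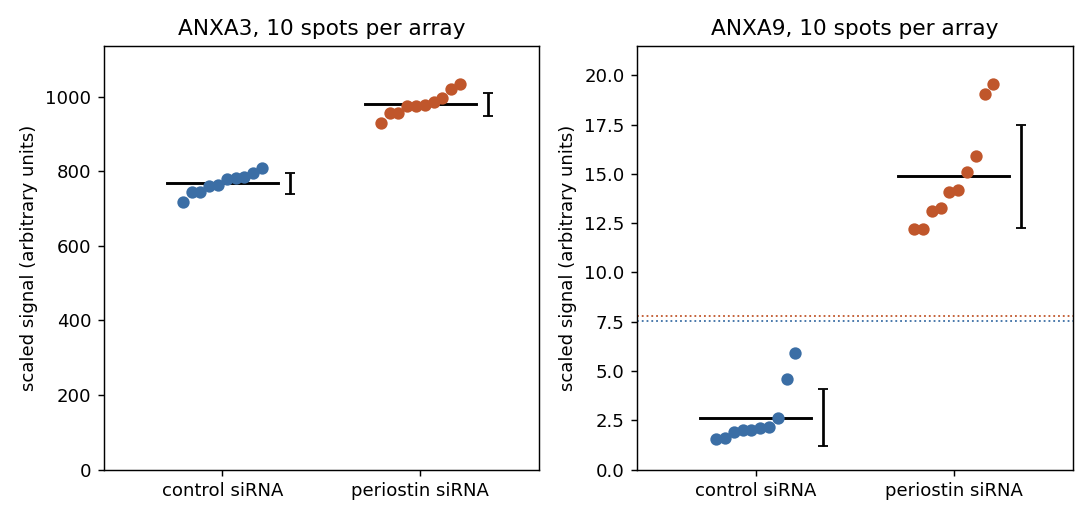
Scaled signal (arbitrary units) of each of the 10 spots of the ANXA3 probe and of the ANXA9 probe on each array, sorted by height, with a line at the mean, a bar for the SD over spots and, for ANXA9, dotted lines at the detection limits of the arrays. The ANXA3 spots separate at 717 to 809 against 928 to 1033, and the ANXA9 spots at 1.53 to 5.93, none well above background, against 12.2 to 19.5.

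ANXA4, an annexin of epithelia that also takes part in wound sealing of membranes, was higher with periostin siRNA. It read 4629 with control siRNA and 8047 with periostin siRNA, 1.74-fold, with a log2 ratio of 0.80 ± 0.20. Of measured genes 11.4% were as high or higher. It was the only one of the 8 annexins other than ANXA8L1 past 1.5-fold.

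ANXA7 and ANXA11 have the longest tails of the family and bind sorcin and the calcium sensor ALG-2. ANXA11, known for tethering RNA granules to lysosomes, read 11031 and 16007, 1.45-fold, with a log2 ratio of 0.54 ± 0.20. Of measured genes 19.4% were as high or higher. ANXA7, first named synexin for fusing membranes, read 3731 and 3394 with -0.14 ± 0.20, and its other probe read 629 and 520 with -0.27 ± 0.20. The ANXA11 ratio was positive and both ANXA7 ratios negative. Of their partners, PDCD6, which encodes ALG-2, had a log2 ratio of 0.21 ± 0.20 on its brightest probe and 0.57 and 0.56 on the others. SRI, which encodes sorcin, had -0.20 ± 0.21.

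ANXA8L1 had the highest ratio, from a control signal near background. ANXA8L1 and ANXA8 are near-identical copies known mainly from epithelia, and the single probe named for ANXA8L1 cannot be taken to tell them apart. It read 9.68 on the control siRNA array and 258 after periostin knockdown. That was 26.7-fold, or 4.74 ± 0.34 as a log2 ratio, on 1 spot. On both arrays the spot carried no outlier flag. Before any scaling its median pixel stood 17 units above local background with control siRNA and 259 with periostin siRNA.

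The detection limit of the control array, its lowest signal to count as well above background, was 7.55, so ANXA8L1 lay close to the limit there and the size of its ratio rests on a dim spot. With normexp, a background correction that lifts dim values, its log2 ratio was 2.16, still past 3-fold. Of 975 genes with a control signal up to 19.4, which is 2 times that of ANXA8L1, and well above background on both arrays, 100 (10.3%) were higher by more than 3-fold. At such control signals a fall of that size would have left the range above background, so no count of lower genes is given. Of the 975, 2 reached its ratio, ANXA8L1 itself included. The 975 were picked on the control signal, which is part of the ratio, so this count tests nothing. Over all measured genes 0.0374%, or 6 genes counting ANXA8L1, had a ratio or bound as high.

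Markers of epithelial and squamous cells were listed to read beside ANXA8L1. Of the 8, CDH1, KRT5, KRT14, TP63 and IVL were not well above background on either array. EPCAM read 34.6 and 135 with a log2 ratio of 1.97, KRT17 18.2 and 97.9 with 2.43, and SFN 21.1 and 20.4 with -0.05. The summed signal of the 8 came to 84.8 in the control and 273 after knockdown. For 6 leukocyte markers, of which 3 were detected in both conditions, 2 in neither and 1 in a single one, the sum was 1845 and 3045, most of it from CD68 (1528 and 2451) and CD14 (287 and 549), while PTPRC, LAPTM5, CD3E and MS4A1 were near or below background. For 4 endothelial markers it was 157 and 158, with the brightest probe of each gene. The brightest VWF probe had a log2 ratio of 0.15. Another VWF probe, printed 10 times, read 52.1 and 90.1 with 0.79 ± 0.15 (SD, n = 10 spots). Such sums add different probes and serve only to set the same list side by side on the 2 arrays. Their part in the annexin ratios was not tested. In RNA from whole cultures, fewer cells making an annexin and less of its RNA per cell cannot be told apart.

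Of the annexin genes outside the 10, ANXA9, whose protein has weak calcium binding, gave a one-sided signal. With control siRNA its 10 spots ran from 1.53 over a median of 2.05 to 5.93 and 0 were well above background, and with periostin siRNA they ran from 12.2 over 14.1 to 19.5 and all 10 were. Set against 7.55, the detection limit given above for the control array, ANXA9 was 1.94-fold higher with periostin siRNA (0.96 on the log2 scale). A probe can lie above such a limit without counting as well above background. SYT7 did so on the periostin siRNA array, at 8.49 against a limit of 7.77. The ANXA9 value is therefore not a strict minimum. With normexp the log2 bound was 0.25, so its size depends on the background correction. ANXA10, known from the stomach, read 2.38 and 7.83, and ANXA13, known from the gut, read 1.63 and 2.69. Neither was well above background on either array. The 6 spots for long noncoding RNAs named after ANXA1 or ANXA5 were not well above background on either array.

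**Figure D4:**
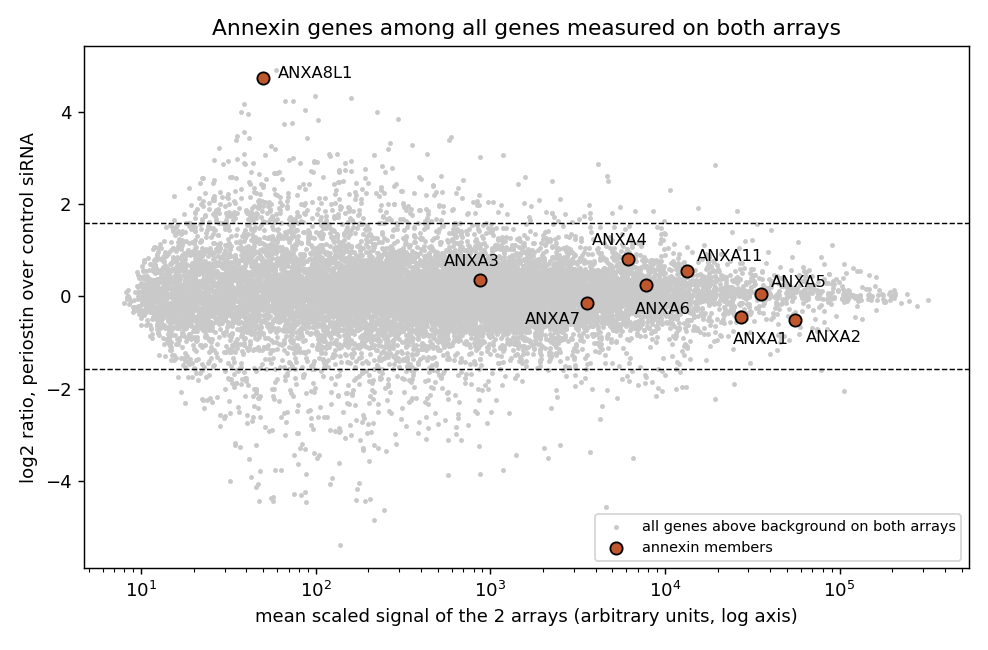
Log2 ratio of periostin siRNA over control siRNA against mean scaled signal (arbitrary units, log axis) for every gene well above background on both arrays (grey), with the 9 annexin genes named and dashed lines at 3-fold. The annexins except ANXA8L1 lie between -0.52 and 0.80, and ANXA8L1 lies at 4.74 where signals are low and ratios spread widely.

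In order of ratio from the lowest, the annexins were ANXA2, ANXA1, ANXA7, ANXA5, ANXA6, ANXA3, ANXA11, ANXA4 and ANXA8L1. Of the 8 pairs of neighbours in that order, 2 differed by more than their combined error, taken as the propagated error of each gene or, for ANXA3, its SD over spots. ANXA7 was above ANXA1 by 0.31 on the log2 scale against an error of 0.29, and ANXA8L1 was above ANXA4 by 3.94 against 0.40. The other 6 pairs were within it. The second ANXA7 probe, at -0.27, lay nearer to ANXA1 at -0.44, so the difference of that pair depends on the probe. Probes printed 10 times with a signal like that of the 8 bright annexins gave an SD of 0.049 to 0.065, below the propagated errors of those annexins. For ANXA8L1 the nearest such probes gave 0.34, about equal to its propagated error. SFN, at 20.4 with periostin siRNA, shared that pool, so the pool reached to probes brighter than ANXA8L1 with control siRNA. All 8 pairs differed by more than the combined SD of such probes. The ANXA2 and ANXA1 pair was nearest to it, at 0.078 against 0.070, and its order was not stable. With normexp ANXA1 had -0.478 and ANXA2 -0.471, and with quantile normalization -0.498 and -0.457. The second ANXA2 probe, at -0.428, also lay above ANXA1 at -0.444. Both errors describe spots, not cultures.

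Annexins seal torn plasma membrane together with other proteins. For that repair 18 genes of it or of its gene families were listed, of which 17 were measured. Their median log2 ratio was 0.10, with 11 above 0 and 6 below, beside 8745 and 7307 of all measured genes. The median of the list turned to -0.03 with scaling on the array median. VPS4B, an ATPase that takes ESCRT filaments apart, read 2176 and 1128 with -0.95 ± 0.20. It was the only repair gene past 1.5-fold, where 13.7% of all genes were that much lower. Its paralog VPS4A read 3113 and 2903 with -0.10 ± 0.20, within its error.

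EHD1, a membrane-remodelling ATPase, read 7007 and 10492 with 0.58 ± 0.20, and its relative EHD2 had 0.37. Of the ferlins on that list, MYOF read 6411 and 7109 with 0.15, and OTOF read 1686 and 2082 with 0.30. DYSF was dim at 11.3 and 15.1 with 0.41 ± 0.33. The calpain subunits differed in sign, with 0.33 for CAPN1, 0.27 for the shared small subunit CAPNS1 and -0.28 for CAPN2. The caveolar coat genes CAV1, CAVIN1 and CAV3 had 0.10 ± 0.067 (SD, n = 10 spots), -0.16 and -0.30, and the second probe of CAVIN1 gave 0.12.

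The ESCRT genes CHMP4B and CHMP2A had 0.04 and 0.24. PDCD6IP, an adaptor that brings ESCRT to wounds, had 0.06 on its brightest probe with 0.58 and -0.37 on the others, so its probes disagreed in sign. SYT7, a calcium sensor of lysosome exocytosis, was well above background with control siRNA alone, at 11.1 against 8.49 with periostin siRNA. Its log2 ratio of -0.39 was within its error of 0.45. TRIM72 was not well above background on either array.

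Of the remaining partners, S100A4, S100A6, S100A13 and S100A16 had log2 ratios of -0.09, 0.06, 0.25 and -0.26. AHNAK, a giant scaffold bound by ANXA2 with S100A10, had -0.09 on its brightest probe and 0.37 and -0.23 on the others. KDR was well above background with control siRNA alone, at 9.79 against 1.93 with periostin siRNA. Set against the detection limit of 7.77 it was 1.26-fold lower, or -0.33 as a log2 ratio. That value lay within its spot error of 1.48 and is not a strict minimum.

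**Figure D5:**
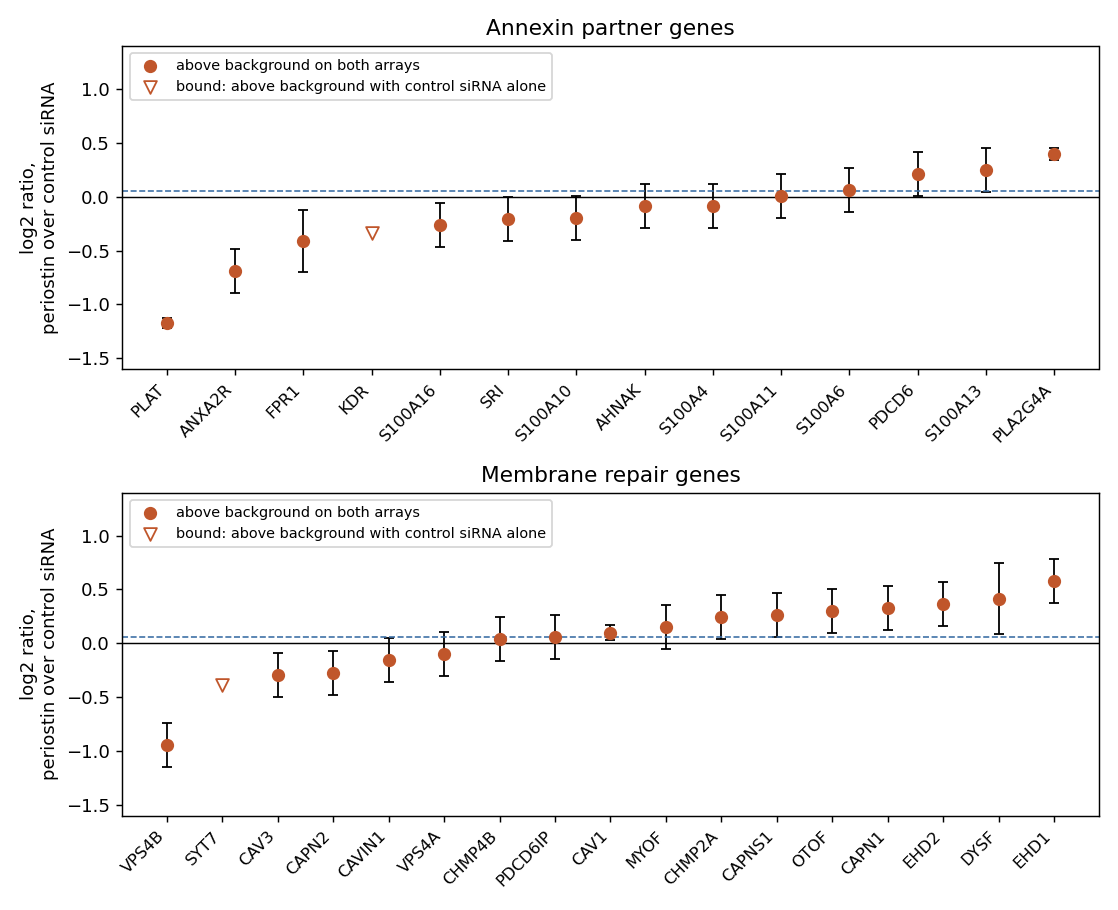
Log2 ratio of periostin siRNA over control siRNA for the annexin partners and the membrane repair genes, with bars for the spot error (SD where a probe had 10 spots), open triangles for genes well above background with control siRNA alone and a dashed line at the median of all measured genes (0.06). PLAT (-1.18) and VPS4B (-0.95) lie lowest in their lists, and PLA2G4A (0.40) and EHD1 (0.58) highest.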

How the data were processed

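RNA of MRC-5 cells transfected with control or periostin siRNA was hybridised to 1 Agilent array for each condition. Scanner output of both arrays was deposited, with intensity values that Feature Extraction had corrected for background and spatial trend but had not scaled between arrays. The file headers name version 11.5.1.1, and the submitters' processing notes name Agilent Feature Extraction 12.0.3.1. A second deposited table held normalized intensity, and for probes printed once it was a constant multiple of the scanner values, 3.65 in the control and 3.54 after knockdown. How those constants were set is not given in the sources used here. The arrays were annotated on hg19, and RefSeq GRCh38.p14 was used only for gene names and for promoter sequences.

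Main values were log2 of the processed signal minus the array's 75th percentile over 58717 non-control spots, 372 in the control and 383 after knockdown. Spots of a probe were averaged on the log2 scale. Feature Extraction flags spots well above background, and a probe passed when its flagged spots were no fewer than its unflagged ones. The brightest probe stood for a gene. Where a probe passed on 1 array alone, a bound was computed from the brighter signal over the dim array's detection limit (its lowest flagged signal) or over the dim probe itself, whichever was higher. Where the dim probe was the higher, as for SYT7, the value is a plain ratio and no bound. Since a probe can stay unflagged above the detection limit, a bound is not a strict minimum. Accessions named 38222 spots (65.1%). The ± for a probe printed 10 times is the SD over its spots. The SD for similar probes is pooled over the 100 probes printed 10 times, of 688, that are nearest in signal. All 688 passed on both arrays.

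The named genes were the 10 family members whatever their values, 3 other annexins, 16 partner genes, 18 membrane repair genes, POSTN and the cell type markers. ANXA2 and ANXA2R copies and neighbours were named after their values were seen. The members and lists were chosen with earlier results of these data known. Precision is limited by the number of arrays, and no test was run. Alternatives were normexp background correction with offset 50 (limma 3.58.1 in R 4.3.3), other scalings, quantile normalization, the authors' table, the mean over probes, a filter on dim probes, removal of flagged spots and folds of 2 and 1.5. Other steps used Python 3.11.15, numpy 2.4.6 and pandas 2.3.3, and the scripts were tested on simulated data. Motif matches were sought in 300-base windows.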

Additional observations from a re-analysis of the deposited data

How the results depend on the processing

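No paired analysis was possible because there was a single array for each condition, which also left no replicate to leave out. The arrays shared 1 slide, so a block for slide could not be fitted. Over 9 alternative settings the log2 ratios ran from -0.57 to -0.40 for ANXA1, -0.65 to -0.46 for ANXA2, 0.22 to 0.40 for ANXA3, 0.67 to 0.86 for ANXA4, 0.11 to 0.28 for ANXA6, -0.26 to -0.09 for ANXA7 and 0.41 to 0.58 for ANXA11, without a change of sign. ANXA5 ran from -0.09 to 0.08. Normexp background correction moved ANXA8L1 from 4.74 to 2.16, POSTN from -3.24 to -2.99 and the ANXA9 bound from 0.96 to 0.25. The control signals of ANXA8L1 and ANXA9 lay near or below the detection limit, which limits both values. Scaling on the median moved the median of all genes by -0.13 and ANXA3 to 0.22, the lowest of its range. The count of members past 3-fold was 1 higher and 0 lower in all settings but the 1.5-fold threshold, which gave 2 higher. Over all genes 541 were higher and 441 lower by more than 3-fold, a share of 55.1% higher. Normexp gave 143 and 190, a share of 42.9%, the 2-fold threshold 1279 and 1031, and the 1.5-fold threshold 2818 and 2202. The partner median ran from -0.27 to -0.09 and the repair median from -0.03 to 0.14.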
